A study of Mus musculus with 8 samples.

Results

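Complement components and regulators were examined in pancreatic tissue of Bach2KO and Bach2WT mice. The 9 genes, C4b, C3, C2, Cfb, C1qa, C1qb, C1qc, Serping1 and Cd55, were chosen by gene symbol, and each was found once among the 21434 genes of the count table. RNA-seq libraries came from 8 untreated mice at 18 weeks of age, with 2 females (mice 1 and 2) and 2 males (mice 3 and 4) per genotype. The Bach2KO mice were homozygous for the C57BL/6N-Bach2tm1b(EUCOMM)Wtsi/leg allele, a constitutive knockout carried by every cell of the body, and the Bach2WT mice carried the wild type gene on the same strain. The tissue was therefore not deleted for Bach2 in a single cell type, and a difference between the genotypes cannot be assigned to pancreatic or to immune cells. Bach2 encodes a transcriptional repressor that is best known from lymphocytes. The study asked how its loss alters gene expression in the pancreas.

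Complement is a cascade of plasma and membrane proteins. In the classical pathway, C1q binds antibody or damaged cells, and its proteases cleave C4 and C2 into an enzyme that splits C3. In the alternative pathway, factor B serves the same purpose with C3b, and inhibitors such as Serping1 in plasma and Cd55 on cells hold the cascade in check. The liver makes most plasma complement, whereas C1q comes mainly from macrophages, and C3 and C4 can be induced in epithelia and stroma during inflammation.

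In Bach2KO mice the main difference lay in C4b. Its mean level was 4.50-fold that of Bach2WT mice and every Bach2KO mouse stood above every Bach2WT mouse. C1qb and C1qc were also higher on average, at 1.94-fold and 1.50-fold, whereas C1qa was at 0.644-fold, so the 3 chains of C1q did not shift as one. The central component C3 was nearly level between the genotypes at 1.03-fold. After adjustment over the 12820 genes that passed edgeR's filter on low counts, 0 of the 8 members tested were past a Benjamini-Hochberg adjusted p of 0.05, in either direction, where 0.0078% of all genes were. At an unadjusted p under 0.05, C4b and C1qb were higher and 0 members were lower, against 3.9% and 3.56% of all genes. With DESeq2 on the same counts, 1 member, C4b, was higher and past the adjusted threshold, beside 0.388% of all genes, and 0 members were lower, beside 0.156%.

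The promoters of the C1q chain genes are shown because C1qb and C1qc followed each other closely across the 8 mice and are expressed in the same cell type. In the table of RefSeq promoters (GRCm38.p6, 250 bases before to 50 after each start), 4 of the 9 members were found, namely C1qb, C1qc, C3 and Cd55. Each sequence runs 5′ to 3′ on the minus strand of the chromosome, and capitals mark the core letters of the site of PU.1, the macrophage and B cell transcription factor, in either direction.
C1qb promoter, chr4:136886151-136886450, minus strand: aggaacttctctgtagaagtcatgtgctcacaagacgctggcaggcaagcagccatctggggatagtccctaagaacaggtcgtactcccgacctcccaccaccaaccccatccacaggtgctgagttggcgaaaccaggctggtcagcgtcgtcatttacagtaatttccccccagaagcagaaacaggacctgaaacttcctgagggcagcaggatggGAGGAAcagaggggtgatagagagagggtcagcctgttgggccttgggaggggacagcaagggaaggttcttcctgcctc
C1qc promoter, chr4:136892865-136893164, minus strand: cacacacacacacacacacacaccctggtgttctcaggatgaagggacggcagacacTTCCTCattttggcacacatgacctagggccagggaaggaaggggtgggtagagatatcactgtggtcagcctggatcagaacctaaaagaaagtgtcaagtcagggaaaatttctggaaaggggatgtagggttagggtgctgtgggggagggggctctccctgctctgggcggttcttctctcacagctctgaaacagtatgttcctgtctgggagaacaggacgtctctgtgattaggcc
The letters GAGGAA began 30 bases before the C1qb start, and their reverse complement TTCCTC began 193 bases before the C1qc start. These letters stand in 28.3% of the 32851 promoters of the table on one strand or the other, and were not found in those of C3 and Cd55. The PU.1 letters were added to the search after the sequences had been seen. The core of the interferon-stimulated response element (GAAANNGAA, in 8.56% of promoters), the gamma-activated site (TTCNNNGAA, in 8.30%) and the AP-1 core that Maf and Bach factors share (TGACTCA or TGAGTCA, in 5.20%) were searched on both strands and did not occur in the 4 windows. A match or its absence describes these letters in this window only.

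The libraries held 72299745 to 172029360 counts on genes, and values are given as CPM, the counts of a gene scaled to a common library size, after TMM normalization unless stated otherwise. The biological coefficient of variation between mice of a genotype was 0.438. Bach2 itself had 3 to 16 counts in the Bach2KO and 4 to 31 in the Bach2WT libraries, so its level cannot check the genotype labels, and each genotype is taken from its label. Bach2KO mouse 3 stood apart from the rest on the first principal component, at 101.8 against −34.8 to 7.2. Markers of acinar cells summed to 366270 to 413840 CPM in Bach2KO and 394280 to 520120 CPM in Bach2WT libraries, so the labelled tissue was present in each. In bulk tissue, fewer cells of a type and less RNA per cell cannot be told apart.

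Levels were set side by side on the deposited FPKM scale, which corrects for gene length. In Bach2WT mice C1qa was the highest member, with 9.98 ± 4.94 FPKM (SD, n = 4), followed by C3 with 6.67 ± 4.41, Serping1 with 2.73 ± 1.21, C1qb with 2.56 ± 1.33, C1qc with 1.29 ± 0.509 and C4b with 0.747 ± 0.340 FPKM. C2 with 0.114 ± 0.0573 FPKM and Cd55 with 0.0890 ± 0.0669 FPKM lay far below, and Cfb was close to 0 with 0.00349 ± 0.00477 FPKM. The ranges of neighbours in this order overlapped, except between C4b and C2 and between Cd55 and Cfb. In Bach2KO mice C3 came first with 6.79 ± 1.81 FPKM, then C1qa with 6.33 ± 1.84, C1qb with 4.90 ± 1.39, Serping1 with 3.40 ± 1.28, C4b with 3.32 ± 2.08 and C1qc with 1.91 ± 0.544 FPKM (SD, n = 4 each). For C2 and Cd55 the values were 0.124 ± 0.0749 and 0.0585 ± 0.0226 FPKM, and the gaps in the order lay above C2 and above Cfb. Thus 6 of the members formed an upper group in both genotypes, and C4b was the lowest of them in Bach2WT mice and the second lowest, above C1qc, in Bach2KO mice.

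**Figure D1:**
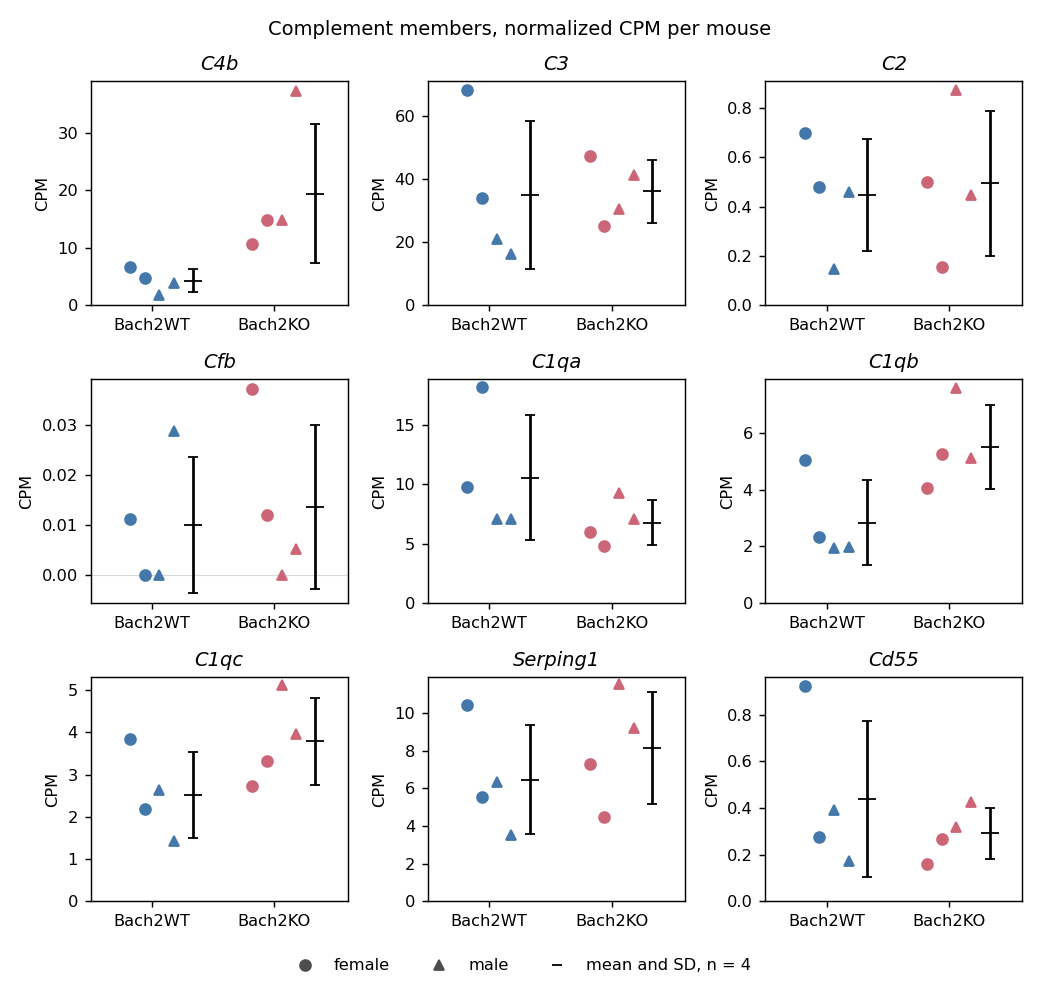
Normalized CPM of the 9 complement genes, one panel per gene with its own linear axis, for each Bach2WT (blue) and Bach2KO (red) mouse. Circles are females, triangles are males, and the bar beside each group is the mean with SD (n = 4). C4b is the gene whose red points, 10.7 to 37.3 CPM, all lie above the blue points, 1.89 to 6.66 CPM.

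C4b, the fourth component of the cascade and the target of the C1 proteases, lies on the minus strand of chromosome 17 (GRCm39, 34947354 to 34962856; ENSMUSG00000073418). Its level was 10.7, 14.9, 14.9 and 37.3 CPM in Bach2KO mice 1 to 4. In Bach2WT mice 1 to 4 it was 6.66, 4.86, 1.89 and 3.87 CPM. All Bach2KO values stood above all Bach2WT values, and Bach2KO mouse 4 stood far above the other 3. The log2 fold change was 2.17 (standard error 0.41, unadjusted p = 1.42e-04, adjusted p = 0.266 in edgeR). Groups without overlap in this direction were found for 2.57% of all genes, and for 1 of the 8 members. In the other direction it was 1.92% of all genes and 0 members. Without Bach2KO mouse 4 the log2 fold change was 1.65 (edgeR adjusted p = 0.303). DESeq2 gave 2.15 with an adjusted p of 0.0187. When all genes were kept in edgeR, the value was 2.18 with an adjusted p of 1.66e-04. The fold change hardly moved, and that fit called more genes over the whole table than the main fit. Their share of all genes was not computed. The mouse genome carries C4a, a near-identical copy whose product has lost the role of C4 in the cascade. C4a had 1 to 11 counts in Bach2KO and 0 to 5 in Bach2WT mice and did not pass the filter, and how reads shared by the copies were assigned is not known, so the level of C4b stands for the reads given to it.

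Markers of pancreatic cell types were read beside C4b, and none of them passed the adjusted threshold. At an unadjusted p under 0.05, 3.9% of all genes were higher and 3.56% lower, and 54.7% had a log2 fold change above 0. Of 6 acinar markers, 2 were lower at an unadjusted p under 0.05 and 0 had a log2 fold change above 0, with −0.53 for Cpa1 and −0.45 for Cel (edgeR adjusted p = 0.513 and 0.607). Of 4 tested duct markers, 2 were higher, with 0.81 for Epcam, which epithelia share, and 0.57 for Krt7 (edgeR adjusted p = 0.352 and 0.627). The others were Krt19 at 0.12 and Sox9 at −0.16. Of 4 endothelial markers, 1, Cdh5, was higher, at 1.07 (edgeR adjusted p = 0.531). Pecam1 was at 0.52, Kdr at 0.36 and Tek at −0.25. The values of Cpa1, Cel, Epcam, Krt7 and Cdh5 were without overlap between Bach2KO and Bach2WT mice. Over all genes, 2.57% were higher without overlap and 1.92% lower. Of 5 mesothelial and 5 islet markers, 1 each was higher at the unadjusted threshold. Of the tested fibroblast and stellate cell, T cell and B cell markers, 0 were higher or lower. The part of tissue composition in the level of C4b and of the other members was not tested.

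C2, which joins C4b in the classical convertase, and Cfb, its counterpart in the alternative pathway, lie side by side on chromosome 17 with 85 bases between them. C2 (GRCm39, 35081580 to 35117241) had 0.500, 0.157, 0.872 and 0.446 CPM in Bach2KO mice 1 to 4 and 0.700, 0.480, 0.146 and 0.461 CPM in Bach2WT mice 1 to 4. The groups overlapped over nearly their whole range, with a log2 fold change of 0.15 (standard error 0.58, edgeR adjusted p = 0.978). These values rest on 13 to 86 counts, and the sign of the fold change turned without Bach2KO mouse 3 (−0.27) or Bach2WT mouse 3 (−0.15). C2 shares its position with Zbtb12 on the opposite strand, whose counts of 0 to 37 may include reads of C2, and the reverse holds too, since the strand setting of the counting is not known. Cfb (35075350 to 35081494) had 6, 1, 0 and 1 counts in Bach2KO mice and 1, 0, 0 and 2 counts in Bach2WT mice. It did not pass the filter, and its CPM did not differ beyond the spread (two-sided exact permutation test over 8 mice, p = 0.657). A library with a count of 0 could hold up to 3 counts by counting error alone, or 6 if each mate of a pair counted separately, so Cfb was hardly detectable at this depth in pancreas of either genotype.

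C3, the component on which all pathways converge (chromosome 17, 57510970 to 57535136; ENSMUSG00000024164), had 47.2, 25.3, 30.6 and 41.3 CPM in Bach2KO mice 1 to 4. The Bach2WT mice had 68.1, 34.1, 21.1 and 16.4 CPM. The widest spread was therefore within the wild type, whose mouse 1 held the highest and mouse 4 the lowest level of all 8 mice. The log2 fold change was 0.05 (standard error 0.36, edgeR adjusted p = 0.988). Without Bach2WT mouse 1 it was 0.60 (unadjusted p = 0.0475, edgeR adjusted p = 0.486), and without Bach2WT mouse 4 it was −0.19. The direction for C3 thus depended on single mice. Within a library, C4b had 0.226 to 0.902 counts per count of C3 in Bach2KO mice and 0.0896 to 0.236 in Bach2WT mice, a 3.76-fold ratio between the genotypes. The groups touched only through Bach2WT mouse 4 and Bach2KO mouse 1 (two-sided exact permutation test on log ratios over 8 mice, p = 0.0571).

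The 3 chains of C1q, the recognition molecule of the classical pathway, are encoded within 18.7 kb of chromosome 4 (GRCm39, 136607440 to 136626114), all on the minus strand and in the order C1qb, C1qc and C1qa. The cluster lies 104 Mb from the end of Bach2 on the same chromosome. C1qa (ENSMUSG00000036887) had 5.99, 4.79, 9.25 and 7.09 CPM in Bach2KO mice 1 to 4 and 9.77, 18.2, 7.12 and 7.08 CPM in Bach2WT mice 1 to 4. Its log2 fold change was −0.64 (standard error 0.30, unadjusted p = 0.0515, edgeR adjusted p = 0.670), with overlapping groups. Bach2WT mouse 2 was the highest, and without it the log2 fold change was −0.24 (edgeR adjusted p = 0.972).

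C1qb (ENSMUSG00000036905) went the other way. It had 4.04, 5.25, 7.57 and 5.09 CPM in Bach2KO mice and 5.05, 2.35, 1.96 and 1.99 CPM in Bach2WT mice. Only Bach2WT mouse 1 reached into the Bach2KO range, and the log2 fold change was 0.95 (standard error 0.31, unadjusted p = 0.00874, edgeR adjusted p = 0.534). Without that mouse it was 1.38 (edgeR adjusted p = 0.124). C1qc (ENSMUSG00000036896) had 2.72, 3.32, 5.13 and 3.97 CPM in Bach2KO mice and 3.84, 2.18, 2.65 and 1.43 CPM in Bach2WT mice, a log2 fold change of 0.58 (standard error 0.29, unadjusted p = 0.0690, edgeR adjusted p = 0.702). The highest level of both genes was in Bach2KO mouse 3, without which the log2 fold changes were 0.74 for C1qb and 0.39 for C1qc. Log2 CPM of C1qb and C1qc followed each other over the 8 libraries with r = 0.88 (0.83 after subtracting the genotype means), whereas C1qa had r = −0.21 with C1qb and −0.08 with C1qc. These correlations describe 8 points that share depth and normalization within a library.

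Since the chains assemble in fixed proportion, their counts were also compared within each library, where depth and normalization cancel. C1qa made up 46.9%, 35.9%, 42.1% and 43.9% of the C1q counts in Bach2KO mice 1 to 4 and 52.4%, 80.0%, 60.7% and 67.5% in Bach2WT mice 1 to 4. The C1qa share was lower in every Bach2KO mouse than in any Bach2WT mouse. There were 0.913 to 1.48 counts of C1qa per count of C1qb in Bach2KO mice and 1.93 to 7.74 in Bach2WT mice, which is 0.330-fold (two-sided exact permutation test over 8 mice, p = 0.0286). Against C1qc the ratio was 1.44 to 2.197 in Bach2KO and 2.54 to 8.33 in Bach2WT mice, which is 0.436-fold (exact permutation p = 0.0286). C1qb and C1qc kept a ratio of 1.28 to 1.58 in Bach2KO and 0.739 to 1.39 in Bach2WT mice (exact permutation p = 0.0857). The value of 0.0286 is the smallest that 4 against 4 mice allow, and it is unadjusted for the 4 ratios compared here, which were chosen after the values had been seen. How often ratios of other gene pairs separate the genotypes was not counted, so the separation has no background. The total of the C1q counts was 12.8 to 21.9 CPM in Bach2KO and 10.5 to 22.7 CPM in Bach2WT mice, with full overlap.

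**Figure D2:**
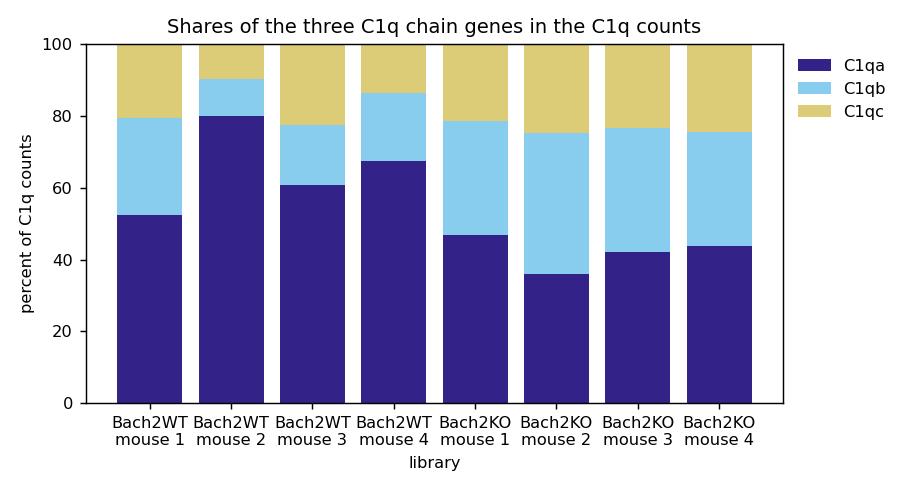
Stacked bars give the percent of all C1q counts of a library that fell on C1qa (dark blue), C1qb (light blue) and C1qc (yellow), for 4 Bach2WT mice on the left and 4 Bach2KO mice on the right. The C1qa part is 52.4% to 80.0% in Bach2WT and 35.9% to 46.9% in Bach2KO mice.

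Macrophages are the known source of C1q, and their markers were therefore read beside it. Of 10 marker genes, 1, Lyz2, was higher in Bach2KO mice at an unadjusted p under 0.05 and 0 were lower. Over all genes the shares were 3.9% and 3.56%. Their summed level was 12.0 to 20.01 CPM in Bach2KO and 7.33 to 14.3 CPM in Bach2WT mice, and all 10 exceeded the floor of 3 counts in some library. Of the 10, 7 had a log2 fold change above 0, with a median of 0.55, beside 54.7% of all genes and a median of 0.05. Lyz2 was at 1.15, Fcgr1 at 1.38 and Adgre1, the F4/80 antigen, at −0.27 on the log2 scale (edgeR adjusted p = 0.523, 0.795 and 0.934). The part of macrophage number in the C1q values was not tested.

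Among the regulators, Serping1, the C1 inhibitor that stops the C1 proteases (chromosome 2, 84595731 to 84605788; ENSMUSG00000023224), had 7.32, 4.47, 11.5 and 9.21 CPM in Bach2KO mice 1 to 4. The Bach2WT mice had 10.4, 5.56, 6.36 and 3.51 CPM. The groups overlapped and the log2 fold change was 0.33 (standard error 0.32, edgeR adjusted p = 0.883). Cd55, the membrane protein that speeds the decay of the convertases (chromosome 1, 130366764 to 130390481; ENSMUSG00000026399), had 0.161, 0.266, 0.317 and 0.425 CPM in Bach2KO mice and 0.922, 0.274, 0.390 and 0.173 CPM in Bach2WT mice. Bach2WT mouse 1 held the highest value by far. The log2 fold change of −0.59 (standard error 0.59, edgeR adjusted p = 0.893) was 0.06 without it. Neither regulator differed beyond the spread between mice, and the 12 to 83 counts of Cd55 left its estimate with a wide error.

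The other genes of the pathway were read from a list of 57 complement genes ordered by role, of which 46 were in the table and 29 passed the filter. At an unadjusted p under 0.05, 2 were higher, both of them members (C4b and C1qb), and 2 were lower, beside 3.9% and 3.56% of all genes. The median log2 fold change of the 29 was 0.07, beside 0.05 for all genes tested, and 16 of the 29 were above 0, beside 54.7% of all genes. In the 21 genes that are not members, 0 were higher and 2 lower, with a median of −0.03. The lower genes were the regulator Vtn (vitronectin, which blocks assembly of the membrane attack complex) and Cpn1 (the catalytic chain of carboxypeptidase N, which inactivates the anaphylatoxins). Vtn had 33.0, 60.7, 82.4 and 24.1 CPM in Bach2KO mice and 112, 85.2, 79.9 and 139 CPM in Bach2WT mice, overlapping only through Bach2KO mouse 3 and Bach2WT mouse 3. Its log2 fold change was −1.06 (unadjusted p = 0.00642, edgeR adjusted p = 0.531). Cpn1 had 31.0 to 41.3 CPM in Bach2KO and 38.7 to 54.3 CPM in Bach2WT mice, a log2 fold change of −0.36 (unadjusted p = 0.0416, edgeR adjusted p = 0.663).

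By role, the classical pathway had 6 of 7 tested genes above 0, with a median log2 fold change of 0.47, beside 54.7% above 0 over all genes. Of these 7, 5 are members described above. Of the proteases that sit on C1q, the log2 fold change was 0.47 for C1ra and 0.24 for C1s1 (edgeR adjusted p = 0.795 and 0.929). In the alternative pathway, Cfd, the protease that cleaves factor B and a product of adipocytes, had 7.39, 0, 0 and 1.41 CPM in Bach2KO mice and 10.6, 6.05, 2.35 and 0.389 CPM in Bach2WT mice (edgeR adjusted p = 0.908). Of the 5 adipocyte markers, 3 were tested, and 1 was lower at an unadjusted p under 0.05, beside 3.56% of all genes. This was Plin1, which coats lipid droplets and was lower without overlap, as were 1.92% of all genes. Plin1 had 0.0865, 0, 0 and 0 CPM in Bach2KO against 1.12, 0.8002, 0.306 and 0.202 CPM in Bach2WT mice (unadjusted p = 0.00144, edgeR adjusted p = 0.367). Cidec was at −1.58 and Fabp4 at 0.21 on the log2 scale (edgeR adjusted p = 0.870 and 0.961). Adipoq, the adiponectin gene, had 0 to 0.297 CPM in Bach2KO and 0 to 2.39 CPM in Bach2WT mice. The sum of the 5 was 2.06 to 5.38 CPM in Bach2KO and 0.893 to 10.6 CPM in Bach2WT mice, of which Fabp4 alone held 1.97 to 3.94 and 0.634 to 5.25 CPM. The part of adipocytes in the level of Cfd was not tested. In the lectin and terminal pathways, 2 genes each passed the filter, and 0 of them had an unadjusted p under 0.05. Among regulators, Cd59a, which blocks the final pore, was at −0.03 on the log2 scale (edgeR adjusted p = 0.991). Cd46, a cofactor for the cleavage of C3b, had 0 to 14 counts in a library and was not tested. Of the membrane regulators, 0 of 4 tested lay above 0. Of the receptors, 4 of 6 did, beside the same 54.7%, among them Itgam, a chain of complement receptor 3, with 1.43, while C3ar1, the receptor for C3a, had −0.03 (edgeR adjusted p = 0.827 and 0.998).

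**Figure D3:**
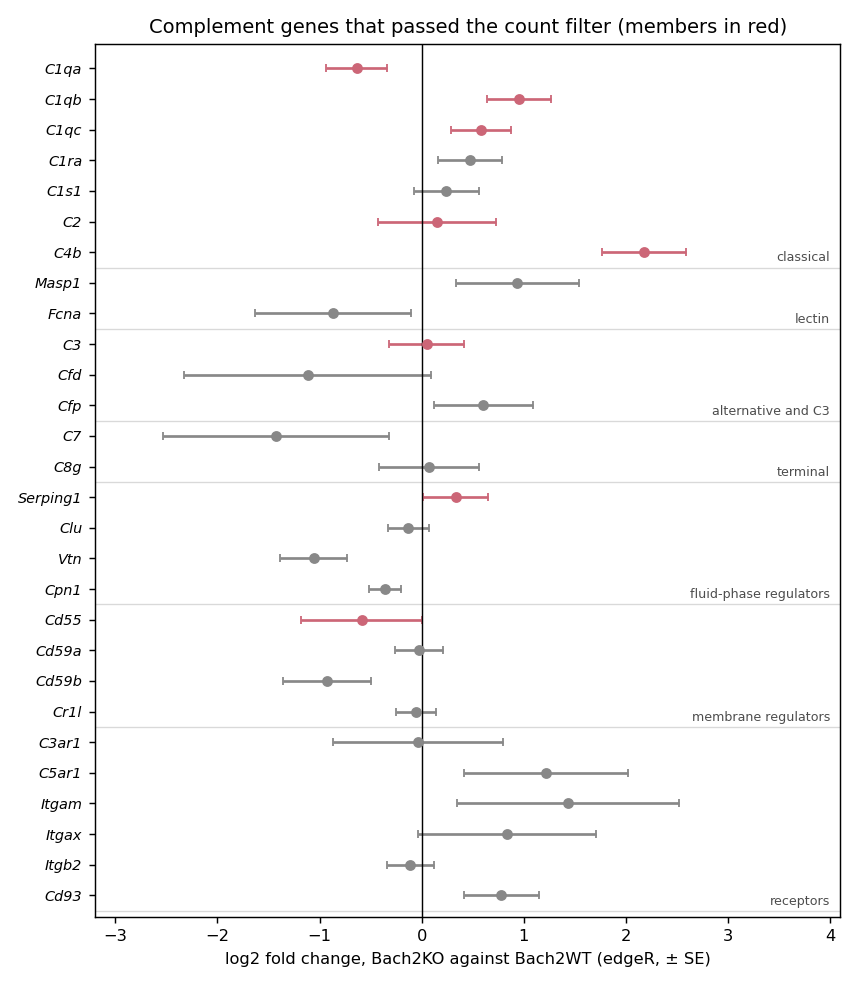
Log2 fold change with standard error, Bach2KO against Bach2WT (4 mice each), for complement genes that passed the filter, grouped by role, with members in red and other genes in grey. Of the 29 that passed, 1 is not drawn. C4b has the highest value, 2.17 (standard error 0.41). The error bars of Itgam (1.43, standard error 1.09) and C5ar1 (1.22, standard error 0.80) reach into its own. The other genes lie on both sides of 0.

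Both sexes were present in the design, and the genotype difference was therefore also taken within each sex. The values for each sex are contrasts in a joint fit over all 8 mice. Their standard errors and p-values therefore draw on the spread among mice of both sexes. In males the log2 fold change of C4b was 3.19 (standard error 0.46, edgeR adjusted p = 0.0424), so it rose in Bach2KO males by the adjusted test, as did 0.039% of all genes. In females it was 1.15 (standard error 0.43, edgeR adjusted p = 0.579), where 0 members and 0.0156% of all genes were higher by the adjusted test. The males had 14.9 and 37.3 CPM in Bach2KO and 1.89 and 3.87 CPM in Bach2WT mice, and the females 10.7 and 14.9 CPM against 6.66 and 4.86 CPM. C4b was thus above the wild type in both sexes, and the females of the wild type were above its males. At an unadjusted p under 0.05 in edgeR, 5 members were higher in Bach2KO males, namely C4b, C3, C1qb, C1qc and Serping1, beside 4.29% of all genes, and 0 were lower, beside 1.82%. In females 1 member, C4b, was higher, beside 3.5% of all genes, and 1, C1qa, was lower, beside 3.98%.

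For all 8 members tested, the log2 fold change was larger in males than in females, as it was for 50.9% of all genes. The members share the same 8 mice, so their directions are not independent of each other. The difference was 2.04 for C4b, 1.43 for C3, 1.57 for C1qa, 1.35 for C1qb and 1.50 for Serping1, with unadjusted interaction p-values of 0.00551, 0.0159, 0.00298, 0.0211 and 0.0145 in edgeR. An unadjusted p under 0.05 with a larger fold in males was found for 3.27% of all genes. After adjustment over all genes tested, 0 members passed (edgeR adjusted p = 0.793 or higher), and 0 of 12820 genes did, with 787 at an unadjusted p under 0.05 (6.14%). The remaining members had differences of 1.95 for C2, 1.14 for C1qc and 1.88 for Cd55 (unadjusted p = 0.108, 0.0511 and 0.138 in edgeR). Without Bach2WT mouse 1, a female that held the highest level of C3 and Cd55, 2 members in place of 5 had an unadjusted p under 0.05. Without Bach2KO mouse 2, a female with the lowest C1qa, 3 did. When the filter on low counts was dropped, C4b, C3 and C1qa passed the adjusted threshold, with adjusted p-values of 2.06e-04, 0.0317 and 0.0271. The share of all genes called for the interaction was not counted in these alternative fits, so whether the members stand out there is not known. Without the filter, more genes were also called for the genotype difference. With 2 mice per sex and genotype, the estimates for a sex rest on single animals.

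**Figure D4:**
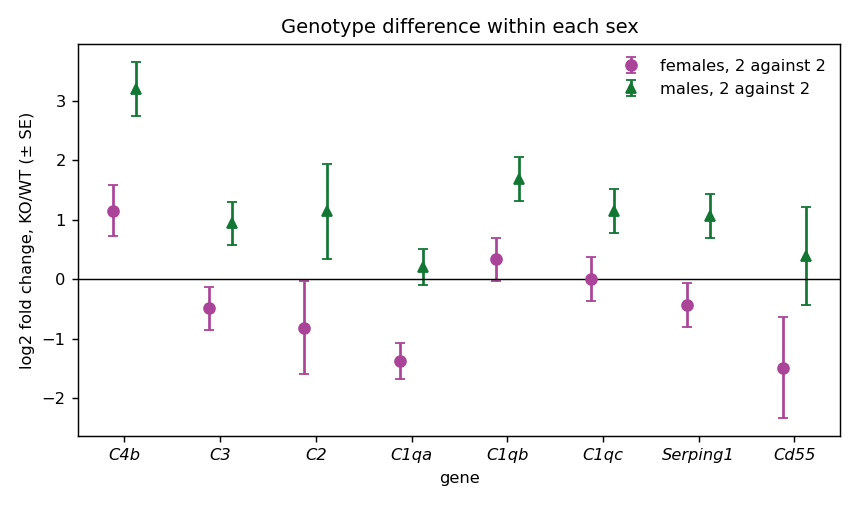
Log2 fold change with standard error, Bach2KO against Bach2WT, in females (purple circles, 2 against 2 mice) and males (green triangles, 2 against 2 mice), for the 8 members tested. Each triangle lies above its circle, and C1qa, for example, had −1.37 in females and 0.20 in males.

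The genes most like the members in pattern were taken from 6750 genes with a mean of at least 1 CPM, by Pearson's r of log2 CPM over the 8 libraries. C4b was followed most closely by Pigr (r = 0.95), the receptor that carries IgA across epithelia, Retnla (0.94), a product of alternatively activated macrophages, B2m (0.92), the light chain of MHC class I, Ctss (0.90), a lysosomal protease, and Utp6 (0.90). After subtracting the genotype means, r was 0.83, 0.75, 0.74, 0.64 and 0.65. The genes were picked by r over the same libraries, so these values are no separate test. C3 was followed by Serpinb1a (0.98), Mettl7a1 (0.96), Iglc1 (0.95), a light chain constant region of immunoglobulin, Pcif1 (0.94) and Arrb2 (0.92). The mean of the C1q chains was followed by Synpo (0.96), Pltp (0.96), Csf1r (0.96), the receptor for macrophage growth factor, H2-Aa (0.95), an MHC class II chain, and Mrtfa (0.95). These are the highest of many values over 8 libraries that share depth and normalization, and are a description only.

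Interferon-inducible genes were read beside C4b, since C4 genes are known to respond to interferon gamma. Of 10 such genes, 6 were higher in Bach2KO mice at an unadjusted p under 0.05, beside 3.9% of all genes, and all 10 had a log2 fold change above 0, beside 54.7%. None passed the adjusted threshold, the lowest adjusted p in edgeR being 0.340, for Tap1. Their summed level was 29.8 to 48.2 CPM in Bach2KO and 12.3 to 28.4 CPM in Bach2WT mice. Most of this sum was B2m, which is itself among the genes most like C4b, with 22.8 to 34.6 CPM in Bach2KO and 8.78 to 20.3 CPM in Bach2WT mice. Without B2m the sum was 7.02, 12.7, 14.1 and 13.7 CPM in Bach2KO mice 1 to 4 and 8.13, 6.16, 3.54 and 3.54 CPM in Bach2WT mice 1 to 4. These groups overlapped, through Bach2KO mouse 1 and Bach2WT mouse 1. The list was chosen with earlier results of these data known, and its genes share the same mice. Its counts are therefore a description and no independent support. The part of an interferon response in the level of C4b was not tested.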

How the data were processed

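RNA of homogenized pancreas from 4 Bach2KO and 4 Bach2WT mice was sequenced as poly-A mRNA libraries. Per the submitters' processing notes, fastp, HISAT2 2.2.1, featureCounts 2.0.6 and build mm39 (GRCm39) were used. Gene annotation, strand setting and treatment of shared reads are not given in the sources used here. The authors deposited 1 table with raw counts per gene and library, and FPKM, which are counts divided by a size factor per library and by gene length, on a scale common to all libraries. It also holds the authors' own fold changes and p-values, which were not used. Of counts from 1 to 40, 72.4% were even, so both mates of a pair may have been counted.

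The deposited counts were compared with edgeR 4.0.16 under R 4.3.3 (quasi-likelihood test, TMM, filterByExpr on genotype, no covariate, all 8 mice, Benjamini-Hochberg over 12820 genes, threshold 0.05). Standard errors are the log2 fold change divided by the square root of F. Log2 CPM used a prior count of 2. Per-mouse values were compared by two-sided exact permutation tests (SciPy 1.17.1). The mice are separate animals. Libraries of 72299745 to 172029360 counts give a floor of 3 counts for a count of 0, which covers counting error only. The procedure was tested on simulated counts. Alternatives were DESeq2 1.42.0, RLE factors, no filter, at least 10 counts in every mouse, and library sizes without digestive enzymes. Further ones were sex as covariate, a replicate block, a gene length correction (loess span 0.3) and counts divided by 2. FPKM were also recomputed from the counts, and each mouse was left out. Values within a sex were contrasts in a joint fit of sex and genotype over all 8 mice. Alternatives for the interaction, the non-overlap and the C1q ratio were added after seeing the data.

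The members and the lists were chosen with earlier results of these data known. Named genes were the 9 members, complement genes at an unadjusted p under 0.05, 10 further complement genes fixed by name, as far as present, the 5 genes most like C4b, C3 and the C1q mean, and Bach2. Marker genes were added where a list is described. Of the genes fixed by name, 1 is not reported here.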

Additional observations from a re-analysis of the deposited data

Results flagged for a closer look

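In Bach2KO mice, the C4b level of 37.3 CPM in mouse 4 lay far from the other 3 mice, with a gap to the nearest, as a share of the range, above Dixon's limit for 4 samples. In Bach2WT mice, the C1qb level of 5.05 CPM in mouse 1 did so too. By chance alone, such gaps appear in about 5% of groups. C4b stayed higher in Bach2KO mice without mouse 4, at 1.65 on the log2 scale. C1qb was higher by 1.38 without Bach2WT mouse 1.

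The effect of genotype differed between the sexes at an unadjusted p under 0.05 for 5 members, with males minus females at 2.04 for C4b, 1.43 for C3, 1.57 for C1qa, 1.35 for C1qb and 1.50 for Serping1 on the log2 scale. None of them passed edgeR's adjusted threshold.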

How the results depend on the processing

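The log2 fold changes of all 8 members tested kept their direction in the 9 alternatives that used all mice, and so did their side of the adjusted threshold, except for C4b. C4b passed with DESeq2 (2.15, adjusted p = 0.0187), without the filter in edgeR (2.18, adjusted p = 1.66e-04) and in the edgeR contrast within males (3.19, adjusted p = 0.0424). That contrast came from the joint fit over the mice of both sexes. The edgeR adjusted p of C4b over the 9 alternatives ranged up to 0.294. Within a sex, the direction turned for C3 (−0.49), C2 (−0.82) and Serping1 (−0.43) in females, and for C1qa (0.20) and Cd55 (0.38) in males. Leaving out 1 mouse gave 1.65 to 2.46 for C4b, −0.19 to 0.60 for C3, −0.27 to 0.45 for C2, −0.84 to −0.24 for C1qa, 0.74 to 1.38 for C1qb, 0.39 to 0.85 for C1qc, 0.10 to 0.66 for Serping1 and −0.85 to 0.056 for Cd55, with 0 members past the adjusted threshold each time. The number of members at an unadjusted p under 0.05 was then 2 to 4 higher (4 without Bach2WT mouse 1) and 0 to 1 lower (C1qa, without Bach2KO mouse 3, Bach2WT mouse 3 or Bach2WT mouse 4), and that of the 57 complement genes 2 to 7 higher (4 without Bach2KO mouse 1, 7 without Bach2WT mouse 1) and 2 to 2 lower. All genes past the adjusted threshold numbered 0 in these fits. The share of all genes at an unadjusted p under 0.05 was not counted in them, so the counts of members and complement genes have no background there. The ratio of C1qa to C1qb counts, Bach2KO over Bach2WT, was 0.265 to 0.421. The cause of these shifts was not tested.

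With DESeq2 and without the filter, 1 member was past the adjusted threshold. With DESeq2, RLE factors, no filter, at least 10 counts in every mouse and counts divided by 2, 1 member was lower at an unadjusted p under 0.05. All of these but the fit without the filter gave 4 lower complement genes in place of 2. In these alternatives too, the share of all genes at that unadjusted threshold was not counted. Over all genes, DESeq2 gave 57 higher and 23 lower genes and the fit without the filter 55 and 18, where edgeR gave 1 and 0. That number was 0 with sex as a covariate, a replicate block, counts divided by 2 or at least 10 counts in every mouse. The replicate block changed no call of a member (C4b 2.14, C1qb 1.05, C1qa −0.55). Whether the numbers pair the mice is not given by the labels. Deviations of same-numbered mice from their group means had r = 0.21, −0.03, −0.04 and −0.05, which cannot decide it.

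For the interaction with sex, the fit without the filter gave 2.05 for C4b, 1.43 for C3 and 1.57 for C1qa, each past the adjusted threshold. How many of all genes passed in that fit was not counted. Leaving out 1 mouse gave 1.23 to 2.64 for C4b, 0.85 to 1.95 for C3, 1.32 to 3.03 for C2, 1.06 to 1.95 for C1qa, 0.70 to 1.80 for C1qb, 0.68 to 1.66 for C1qc, 0.97 to 1.99 for Serping1 and 0.76 to 2.59 for Cd55. Of 412 values recomputed, 361 were taken as the same. Fold changes had to keep their direction and call, ratios their direction, and FPKM had to stay within the spread. Counts of genes had to stay within a set factor of the main count. Depth limited Cfb, C2 and Cd55 most.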
